A study of Mus musculus with 16 samples.

Results

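Proteasome genes were followed in G1E-ER4 cells over 8 doses of beta-estradiol. Every gene whose symbol is Psma, Psmb, Psmc, Psmd, Psme, Psmf or Psmg followed by a number was taken, which gave 48 of the 23410 symbols in the count table. Of these, 45 passed the filter on low counts, among 10080 genes tested in all. Psma8, Psmb8 and Psmb11 did not pass it.

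The proteasome is the cell's main machine for the breakdown of ubiquitin-tagged proteins. Its core particle is a barrel of stacked rings, with alpha subunits (Psma) as gates at the ends and beta subunits (Psmb), some of them proteases, in the middle. The regulatory particle that caps the barrel has a base, made of a ring of ATPases (Psmc) that unfold substrates together with Psmd1, Psmd2 and Psmd4, and a lid of further Psmd subunits that removes ubiquitin. Other caps (Psme) and an inhibitor (Psmf1) bind the core directly, and dedicated chaperones (Psmg1 to Psmg4, Psmd5, Psmd9 and Psmd10) help to build it. In maturing red cell precursors the ubiquitin-proteasome system is known to clear proteins that the finished red cell does not keep.

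G1E-ER4 is a clonal mouse erythroid line that lacks endogenous GATA1, the main erythroid transcription factor, and carries GATA1 fused to the hormone-binding part of the estrogen receptor. Per the labels, cells received 0 nM (control), 12.5, 25, 50, 75, 100, 150 or 200 nM beta-estradiol, which sends the fusion protein to the nucleus, with 2 replicates per dose and 16 libraries. All cells carry the fusion and grew with serum, stem cell factor and erythropoietin, so effects of beta-estradiol itself and of GATA1 cannot be told apart. The amount of GATA1 in the nucleus was not measured, the sources used here do not give the length of the exposure, and the labels do not say whether replicates were separate cultures, so p-values cover the spread between these samples, which may be technical.

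RNA was sequenced from whole cultures after Smart-seq2, which keeps no strand and counts no molecules, to totals of 9393156 to 15802510 counts per library. Replicates of every dose differed by more than sampling noise, with a chi-square per degree of freedom of 1.64 to 3.71. Of 10 erythroid markers, 9 were in the table, and their summed level was 30244 to 30718 CPM at 200 nM, against 2515 to 2611 CPM at 0 nM (CPM stands for TMM-scaled counts scaled to a common library total). Summed megakaryocyte markers (6 of 7 detected, Gp1bb at 0) were at 432 to 445 CPM at 200 nM and 10.0 to 11.3 CPM at 0 nM, of which Itgb3 made up 404 CPM at 200 nM and 7.77 CPM at 0 nM on average. Macrophage and granulocyte markers (5 of 7 in the table detected, Lyz2 and Mpo at 0) summed to 3.39 to 4.05 CPM at 200 nM and 0.491 to 1.45 CPM at 0 nM. Lymphocyte, mast cell and fibroblast or endothelial markers each summed to at most 0.553 CPM at 200 nM and 1.72 CPM at 0 nM. The ribosomal RNA precursor Rn45s took 15.0% of counts at 200 nM and 9.57% at 0 nM, and the TMM factor averaged 0.844 at 200 nM and 1.10 at 0 nM. The part of these shifts in the results below was not tested. In such bulk samples fewer cells of a type and less RNA per cell cannot be told apart.

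At 200 nM against 0 nM, 14 proteasome genes were higher, 23 were lower and 8 did not pass the test (adjusted p under 0.05, edgeR). The background was high: 80.0% of all tested genes were called, 40.5% higher and 39.5% lower, and the 82.2% of proteasome genes called is near it. By direction, 31.1% of proteasome genes were called higher and 51.1% lower. Their median level over the 16 libraries was 263 CPM, against 32.5 CPM for all tested genes, and the part of this in the share called was not tested. With TMM scaling 4 genes (8.89%) were called and changed at least 2-fold, against 37.1% of all tested genes, and 15 (33.3%) at least 1.5-fold, against 56.3%. At least 2-fold, the count was 10 (22.2%, against 40.7% of all genes) with libraries scaled by their totals alone. With Rn45s and globins left out as well it was 8 (17.8%, against 38.8% of all genes). It was 6 (13.3%, against 37.4%) with upper quartile scaling and 4 (8.89%, against 36.1%) with DESeq2. The median log2 fold change was -0.08 for the 45 genes and 0.02 for all genes, and single genes ran from -1.78 (Psmg1) to 1.46 (Psme4). With libraries scaled by their totals alone the median of all genes moved to -0.36, and 7 proteasome genes were higher and 34 lower, where 28.0% and 53.5% of all genes were. With upper quartile scaling 10 were higher and 27 lower, where 37.7% and 42.5% of all genes were. Under all 5 scalings tried, 7 genes were higher (Psme4, Psmf1, Psme1, Psmd9, Psmd10, Psmd8 and Psmd4) and 22 were lower. How many of all tested genes kept their direction under all 5 was not counted. Under these scalings taken singly, 28.0% to 40.5% of all genes were higher and 37.6% to 53.5% lower.

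Summed over the 48 genes, 200 nM libraries held 11431 ± 186 CPM, against 12126 ± 17.9 CPM in 0 nM libraries (SD, n = 2 each). As a share of raw counts, the genes took 0.965% ± 0.0178 at 200 nM and 1.33% ± 0.00373 at 0 nM. On the TMM scale, the sums at doses from 12.5 to 100 nM lay above both, with the highest at 50 nM (12838 ± 231 CPM). As raw shares, 75 and 100 nM (1.27% and 1.22%) lay below 0 nM.

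**Figure D1:**
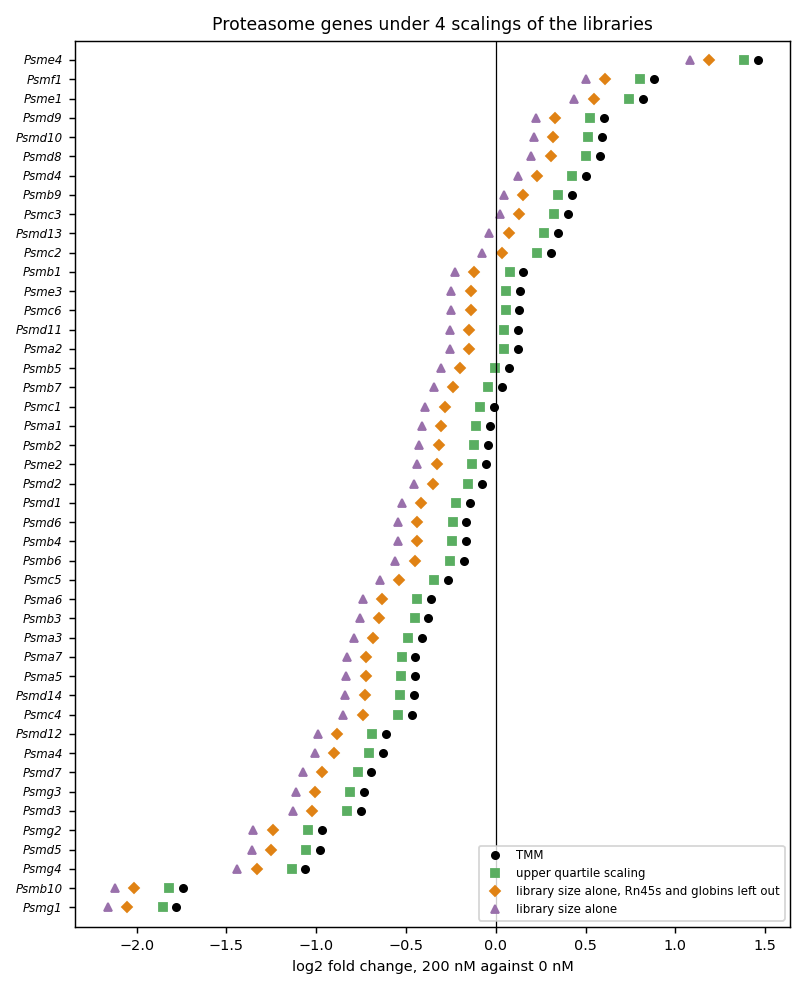
Log2 fold change at 200 nM against 0 nM of the 45 tested proteasome genes (vertical axis) under 4 ways to scale the libraries (symbols). The whole set shifts to the left when library totals alone are used, so that genes just above 0, Psmd11, Psma2, Psmc6 and Psmb1 among them, change sign, while Psme4 (1.46 with TMM) and Psmg1 (-1.78) stay at the ends.

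The promoters of the 2 genes with the highest and the 2 with the lowest fold change are shown so that the ends of the range can be compared. They span 250 bases before to 50 after each RefSeq start (GRCm38.p6), 5′ to 3′ on the gene's strand: Psme4 at chr11:30771525-30771824 (plus strand), Psmf1 at chr2:151741261-151741560 (minus), Psmg1 at chr16:95990911-95991210 (minus) and Psmb10 at chr8:105938343-105938642 (minus). Capitals mark matches on either strand to TGACNNNGC, the core of the antioxidant response element, to CCAAT or to GATAA, the GATA factor motif.
Psme4: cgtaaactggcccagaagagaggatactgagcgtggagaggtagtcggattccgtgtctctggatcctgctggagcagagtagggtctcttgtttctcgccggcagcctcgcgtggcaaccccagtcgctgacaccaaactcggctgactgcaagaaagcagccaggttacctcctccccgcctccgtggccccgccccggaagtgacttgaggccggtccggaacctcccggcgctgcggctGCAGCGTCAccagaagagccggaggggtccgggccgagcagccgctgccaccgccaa
Psmf1: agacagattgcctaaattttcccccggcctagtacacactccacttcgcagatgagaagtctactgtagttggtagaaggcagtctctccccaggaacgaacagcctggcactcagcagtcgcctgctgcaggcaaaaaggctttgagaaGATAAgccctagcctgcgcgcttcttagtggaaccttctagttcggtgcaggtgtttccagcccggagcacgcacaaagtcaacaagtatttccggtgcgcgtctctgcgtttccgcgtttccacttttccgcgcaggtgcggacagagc
Psmg1: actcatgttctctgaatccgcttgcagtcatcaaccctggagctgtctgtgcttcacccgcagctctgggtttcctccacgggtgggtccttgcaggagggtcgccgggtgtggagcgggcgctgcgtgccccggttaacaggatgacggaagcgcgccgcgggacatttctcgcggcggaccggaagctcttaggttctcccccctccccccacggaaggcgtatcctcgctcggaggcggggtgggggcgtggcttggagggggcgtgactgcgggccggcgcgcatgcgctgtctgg
Psmb10: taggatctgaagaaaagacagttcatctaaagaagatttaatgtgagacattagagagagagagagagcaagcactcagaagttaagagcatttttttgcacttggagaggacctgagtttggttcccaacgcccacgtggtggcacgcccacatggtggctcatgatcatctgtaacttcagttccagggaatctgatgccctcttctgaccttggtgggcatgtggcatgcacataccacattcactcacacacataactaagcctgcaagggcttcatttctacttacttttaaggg
The Psme4 window holds TGACNNNGC on the reverse strand, with its leftmost base at -7 from the start, and the Psmf1 window holds GATAA at -100. Neither the Psmg1 nor the Psmb10 window holds any of these letter strings, which says only that the letters are not there. A promoter was matched for 40 of the 48 genes. TGACNNNGC was in 15% of these and in 14% of 27025 promoters in the table, CCAAT in 35% against 41.1%, and GATAA in 22.5% against 28.4%. Of the 12 genes higher at 200 nM with a promoter, 5 held GATAA (41.7%), 3 TGACNNNGC (25%) and 4 CCAAT (33.3%). Of the 20 lower genes, 2 held GATAA (10%), 2 TGACNNNGC (10%) and 5 CCAAT (25%), and these splits were not tested. No matches overlapped in the printed windows, and a match describes letters, not a bound site.

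Most genes of the core's alpha ring fell. Of 7 alpha subunits, 1 was higher, 5 were lower and 1 was not called at 200 nM with TMM scaling (median log2 fold change -0.41). Of all genes 40.5% were higher and 39.5% lower. Under library size alone, where 53.5% of all genes were lower, all 7 alpha subunits were. Psma4 (chr9:54950790-54958030, plus strand; all such positions are gene spans in GENCODE M21, GRCm38), a ring subunit, fell most. Psma4 had 124 and 117 CPM at 200 nM, against 187 and 185 CPM at 0 nM. The replicates did not overlap between the doses, and the log2 fold change was -0.63 ± 0.05 (edgeR, adjusted p = 2.25e-16). Its transcript has a near-identical processed pseudogene, Gm6542, so reads may have been split. Psma5, Psmc1, Psmd2 and Psmd11 also have near-identical transcripts of other genes. Psma2 was the alpha subunit called higher. Psma2 had 566 and 563 CPM at 200 nM, against 512 and 524 CPM at 0 nM. The values did not overlap, but the change was small, at 0.12 ± 0.03 (edgeR, adjusted p = 0.000477), and turned to -0.26 under library size alone. Psma6, Psma3, Psma7 and Psma5 fell, with log2 fold changes of -0.36, -0.41, -0.45 and -0.45.

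Psma1 followed another course. Its means were 528, 529, 533, 565, 601, 655, 661 and 516 CPM over the doses from 0 to 200 nM. Psma1 had 639 and 682 CPM at 150 nM, against 529 and 527 CPM at 0 nM. It was higher at 75, 100 and 150 nM than at both 0 and 200 nM (edgeR, adjusted p of the weaker of both comparisons 3.33e-09 at 100 nM). At 200 nM it had 532 and 500.2 CPM, which overlapped the 529 and 527 CPM at 0 nM.

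The constitutive beta ring moved less. With TMM scaling, where 40.5% of all genes were higher and 39.5% lower, 1 of 7 subunits was higher and 3 were lower. The other 3 were not called (median of the 7 -0.05). Under library size alone, where 53.5% of all genes were lower, all 7 were. Of the 3 catalytic subunits, 1 was called. Psmb5 had 42.4 and 43.2 CPM at 200 nM, against 40.8 and 40.5 CPM at 0 nM. The replicates of this chymotrypsin-like protease did not overlap, but its log2 fold change did not pass, at 0.07 ± 0.08 (edgeR, adjusted p = 0.37). Psmb7 had 196 and 191 CPM at 200 nM, against 188 and 190.0 CPM at 0 nM. This trypsin-like protease did not overlap either and was not called (0.03 ± 0.04, adjusted p = 0.463). Under library size alone both turned negative, at -0.31 for Psmb5 and -0.35 for Psmb7. Psmb6 had 266 and 272 CPM at 200 nM, against 303 and 306 CPM at 0 nM. Psmb6, the caspase-like protease, thus did not overlap between doses and fell by 0.18 on the log2 scale (edgeR, adjusted p = 2.29e-05). Psmb5 has a near-identical pseudogene and 12.1% of its exon bases overlap Mir686, and 11.8% of those of Psmb7 overlap Nek6, so both are uncertain.

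The ends of the beta ring were the non-catalytic Psmb1 and Psmb3. Psmb1 had 507 and 494 CPM at 200 nM, against 443 and 456 CPM at 0 nM. Psmb1 did not overlap between doses, with a change of 0.15 ± 0.04 (edgeR, adjusted p = 0.000491) that turned to -0.23 under library size alone. Psmb3 had 107 and 113 CPM at 200 nM, against 140.4 and 145 CPM at 0 nM. Psmb3 did not overlap either and changed by -0.38 ± 0.05 (adjusted p = 1.93e-09), and it has 3 near-identical pseudogenes. Psmb4 fell slightly (log2 fold change -0.17), and Psmb2 was not called (log2 fold change -0.05).

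The immune beta subunits, which replace the catalytic ones in cells that present antigens, went separate ways. Psmb10 had 15.5 and 14.6 CPM at 200 nM, against 50.2 and 50.3 CPM at 0 nM. All values at 200 nM were far below those at 0 nM, with a log2 fold change of -1.74 ± 0.09 (edgeR, adjusted p = 2.46e-22). Psmb10 (chr8:105935735-105938444, minus strand) is the immune counterpart of Psmb7. Its course over the doses from 0 to 200 nM was 50.2, 51.1, 51.9, 45.3, 34.1, 28.1, 20.8 and 15.0 CPM, and it was first called at 75 nM. Within each library, log2 Psmb10 minus log2 Psmb7 (0.5 CPM added) was -3.64 ± 0.03 at 200 nM and -1.90 ± 0.01 at 0 nM (SD, n = 2 each). This difference is not corrected for length, so only its shift can be read.

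Psmb9, the immune counterpart of Psmb6, was low at every dose and highest at 100 nM. Psmb9 had 5.80 and 5.27 CPM at 100 nM, against 3.07 and 2.59 CPM at 0 nM. The groups did not overlap, and the log2 fold change was 0.97 ± 0.22 (edgeR, adjusted p = 0.000187, and 0.00098 to 0.00699 with any 1 of these libraries left out). At 75 and 150 nM it was also called (adjusted p = 0.0189 and 0.0238), but the call at 75 nM was lost without 0 nM replicate 2 (adjusted p = 0.136) or 75 nM replicate 1 (0.218). The call at 150 nM was lost without 0 nM replicate 2 (0.144) or 150 nM replicate 1 (0.116), and neither DESeq2 (0.0937 at 75 nM and 0.0836 at 150 nM) nor library size alone (0.0544 and 0.204) called either. At 200 nM it had 4.24 and 3.39 CPM, against 3.07 and 2.59 CPM at 0 nM, a change of 0.43 ± 0.25 that did not pass (adjusted p = 0.113). The macrophage and granulocyte markers, which were also higher at 200 nM, are given above, and their part in this was not tested. Psmb9 shares 5.79% of its exon bases with Tap1, and unstranded reads from both cannot be told apart.

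The other special core subunits were almost silent. Psmb8, the immune counterpart of Psmb5, had 0 to 2 counts per library. Psmb11, the thymus subunit, had 1 count in all, in a 75 nM library, and the testis subunit Psma8 had 0 counts in every library. A count of 0 allows up to 3 counts, which is 0.175 to 0.351 CPM per library, and this limit covers counting error only.

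**Figure D2:**
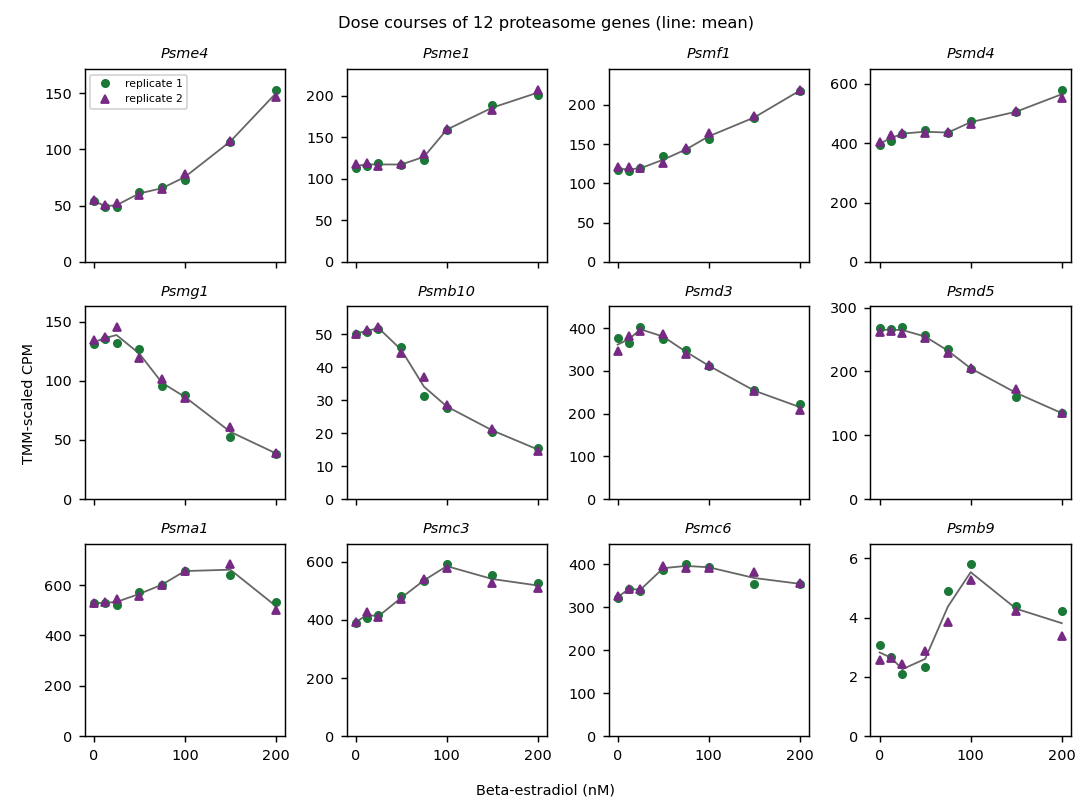
TMM-scaled CPM of 12 proteasome genes (vertical axes, from 0) against the dose of beta-estradiol in nM (horizontal axes), with the 2 replicates as symbols and their mean as a line. Psme4, Psme1, Psmf1 and Psmd4 climb with dose, Psmg1, Psmb10, Psmd3 and Psmd5 decline, and Psma1, Psmc3, Psmc6 and Psmb9 have their highest means between 75 and 150 nM.

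Among the 6 ATPases of the base, 3 were higher, 2 were lower and 1 was not called at 200 nM with TMM scaling (median 0.06). Of all genes 40.5% were higher and 39.5% lower. Under library size alone 0 of the ATPases were higher and 4 lower, where 28.0% and 53.5% of all genes were. Psmc3 rose most. Psmc3 had 528 and 509 CPM at 200 nM, against 391 and 394 CPM at 0 nM. The values did not overlap, and the log2 fold change was 0.40 ± 0.03 (edgeR, adjusted p = 3.28e-15), a call lost under library size alone. At 100 nM it stood higher still, at 592 and 579 CPM, above both 0 and 200 nM (adjusted p = 0.000441). Of its exon bases 8.25% overlap Slc39a13. Psmc4 was the lowest ATPase. Psmc4 had 224 and 229 CPM at 200 nM, against 319 and 307 CPM at 0 nM. The doses did not overlap, with a change of -0.47 ± 0.04 (edgeR, adjusted p = 5.9e-12).

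Psmc6 and Psmc1, both ATPases of the same ring, also had their highest levels at middle doses. Psmc6 had means of 323, 342, 340.4, 390.5, 396, 393, 368 and 354 CPM from 0 to 200 nM, and was above both ends at 50, 75 and 100 nM (edgeR, adjusted p = 0.00349 at 75 nM). Psmc1 had means of 353, 369, 359, 389, 392, 400.2, 372 and 350.0 CPM and was above both ends at the same doses (adjusted p = 0.000317 at 100 nM). At 200 nM, Psmc6 had 353 and 355 CPM, against 321 and 325 CPM at 0 nM, with no overlap, and the change of 0.13 ± 0.03 turned to -0.25 under library size alone. Psmc1 had 351 and 349 CPM at 200 nM, against 354 and 352 CPM at 0 nM. The 200 nM values lay just below, but the change was not called (-0.01 ± 0.03, edgeR adjusted p = 0.769). In all, 4 of the 45 genes, Psma1, Psmc1, Psmc3 and Psmc6, were above both ends at some dose and 0 were below both. The 4 genes were above both ends in 0, 0, 2, 3, 4 and 1 cases at the doses from 12.5 to 150 nM, where 0%, 0.268%, 1.14%, 1.61%, 1.5% and 0.556% of all tested genes were. Below both ends were 0.0992%, 0.0694%, 0.754%, 0.873%, 0.704% and 0.149% of all tested genes at the same doses. Psmc1 lost this call under library size alone, also with Rn45s and globins left out, which left 3 genes. Psmc6 lost it without 200 nM replicate 1. Psmc2 rose by 0.31 and Psmc5 fell by 0.27 on the log2 scale at 200 nM, and the call of Psmc2 was lost under library size alone.

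The other base subunits comprise the scaffolds Psmd1 and Psmd2 and the ubiquitin receptor Psmd4. Of these, 1 was higher and 2 were lower under TMM, where 40.5% and 39.5% of all genes were. The split was the same under library size alone, where 28.0% of all genes were higher and 53.5% lower. Psmd4 had 579.7 and 551 CPM at 200 nM, against 394 and 403 CPM at 0 nM. The values were apart, and the log2 fold change of Psmd4 (chr3:95032694-95042614, minus strand) was 0.50 ± 0.03 (edgeR, adjusted p = 7.57e-19). It was called higher at every dose from 25 nM (adjusted p = 0.0263 there), but under library size alone only at 150 and 200 nM (adjusted p = 0.0389 and 0.000621). Psmd1 had 674 and 674 CPM at 200 nM, against 728 and 759 CPM at 0 nM. The doses did not overlap, and Psmd1 changed by -0.14 ± 0.03 (edgeR, adjusted p = 3.17e-05). Psmd2 fell by 0.08 (adjusted p = 0.042), a call that DESeq2 did not make.

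The lid was split. At 200 nM with TMM 3 of 8 subunits were higher and 5 lower (median -0.31), where 40.5% and 39.5% of all genes were. Under library size alone 1 was higher and 6 lower, where 28.0% and 53.5% of all genes were. Psmd8 rose most. Psmd8 had 444 and 416 CPM at 200 nM, against 289 and 286 CPM at 0 nM. There was no overlap, and the log2 fold change was 0.58 ± 0.04 (edgeR, adjusted p = 2.23e-19). Psmd3 (chr11:98682554-98695979, plus strand) fell most. Psmd3 had 222 and 208 CPM at 200 nM, against 377 and 346 CPM at 0 nM. The values were apart, with a change of -0.75 ± 0.04 (edgeR, adjusted p = 2.43e-22), although at 25 nM it had been called slightly higher (0.14 ± 0.04, adjusted p = 0.0219). That call at 25 nM was not made under library size alone or upper quartile scaling. Psmd7 (-0.69), Psmd12 (-0.61) and Psmd6 (-0.16) fell as well. Psmd14, the lid's deubiquitinase and the partner of Psmd7, fell to 240.4 ± 1.74 CPM at 200 nM, against 330.0 ± 5.87 CPM at 0 nM (log2 fold change -0.46 ± 0.04). Psmd13 rose by 0.35 and Psmd11 by 0.12, but under library size alone Psmd13 was not called and Psmd11 was lower. Of the exon bases of Psmd13, 10.1% overlap Sirt3.

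**Figure D3:**
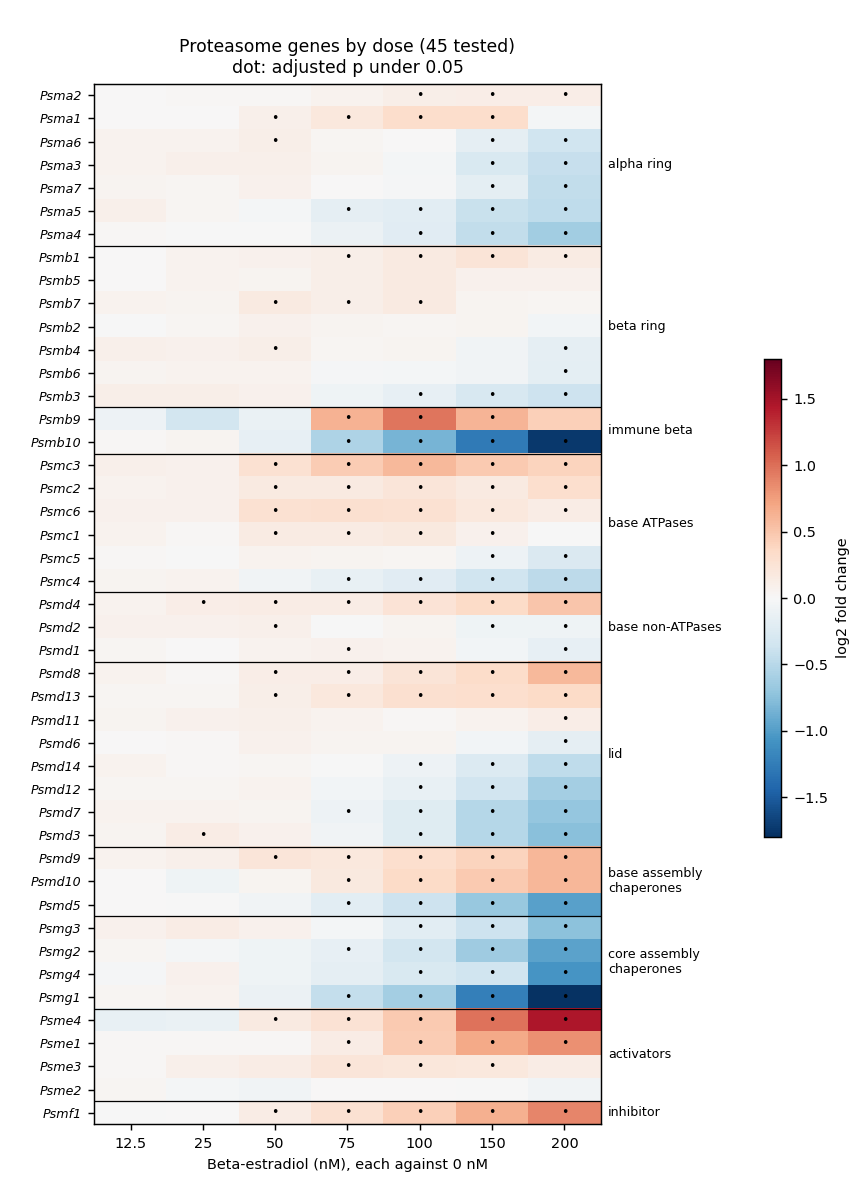
Log2 fold change against 0 nM (colour) of the 45 tested proteasome genes, grouped by role (rows), at each dose of beta-estradiol in nM (columns, TMM scaling), with a dot where the adjusted p was under 0.05. No gene has a dot at 12.5 nM, and at 200 nM 14 are higher and 23 lower (40.5% and 39.5% of all genes). Library size alone gives 7 and 34 (28.0% and 53.5% of all genes).

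Psmg1, an assembly chaperone, had the largest fall of the 45 genes. All 4 core assembly chaperones were lower under TMM (median -1.01), where 39.5% of all genes were. They were also lower under each other scaling, with 53.5% of all genes lower under library size alone. Psmg1 had 38.4 and 38.9 CPM at 200 nM, against 131 and 134 CPM at 0 nM. The 200 nM values were all far below those at 0 nM, and the log2 fold change of Psmg1 (chr16:95979933-95990960, minus strand), which pairs with Psmg2 to start the alpha ring, was -1.78 ± 0.06 (edgeR, adjusted p = 8.78e-29). Its means over the doses from 0 to 200 nM were 133, 136, 139, 123, 98.4, 86.5, 56.9 and 38.7 CPM. Psmg2 reached 98.3 ± 0.920 CPM at 200 nM, against 192 ± 2.55 CPM at 0 nM (log2 fold change -0.97 ± 0.05), and Psmg4 11.5 ± 1.38 CPM, against 24.0 ± 0.296 CPM (-1.06 ± 0.12). Psmg3 had 59.6 and 51.5 CPM at 200 nM, against 92.2 and 92.2 CPM at 0 nM. Psmg3, the partner of Psmg4, thus fell least of these 4, with no overlap and a change of -0.73 ± 0.07 (edgeR, adjusted p = 1.04e-13), and 9.68% of its exon bases overlap Gm26938.

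The chaperones of the base did not move together: 2 were higher and 1 was lower under each scaling. Of all genes, 40.5% were higher and 39.5% lower with TMM, and 28.0% and 53.5% under library size alone. Psmd5 had 134 and 135 CPM at 200 nM, against 268 and 262 CPM at 0 nM. Psmd5 (chr2:34849734-34874968, minus strand) showed no overlap and a log2 fold change of -0.98 ± 0.04 (edgeR, adjusted p = 3.24e-26). Psmd9 had 79.7 and 81.3 CPM at 200 nM, against 51.9 and 54.2 CPM at 0 nM. Psmd9 did not overlap either and rose by 0.60 ± 0.06 (adjusted p = 4.56e-12), but 25.5% of its exon bases overlap Gm26745, so it is uncertain. Psmd10, also known as gankyrin, had 92.9 ± 7.36 CPM at 200 nM and 61.7 ± 2.88 CPM at 0 nM (log2 fold change 0.59 ± 0.07).

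The alternative caps and the inhibitor held the largest rises. Of the 4 activators 2 were higher and 0 lower under TMM (median 0.48), where 40.5% and 39.5% of all genes were. Under library size alone 2 were higher and 2 lower, where 28.0% and 53.5% of all genes were. Psme4 had 153 and 147 CPM at 200 nM, against 54.0 and 54.9 CPM at 0 nM. The doses were far apart, and Psme4 (chr11:30771726-30880361, plus strand), a large cap that opens the core without ATP, changed by 1.46 ± 0.06 (edgeR, adjusted p = 2.99e-27). Its means from 0 to 200 nM were 54.5, 49.5, 50.4, 60.8, 65.5, 75.4, 107 and 149.9 CPM, first called at 50 nM. Psme1 had 200.3 and 207 CPM at 200 nM, against 113 and 118 CPM at 0 nM. Psme1 (chr14:55578123-55581529, plus strand) forms an activator ring with Psme2, did not overlap between doses and rose by 0.82 ± 0.05 (edgeR, adjusted p = 2.12e-21). Psme2 had 77.1 and 71.4 CPM at 200 nM, against 77.8 and 76.6 CPM at 0 nM. Psme2 overlapped and was not called (-0.06 ± 0.06, adjusted p = 0.399), and its near-identical copy Psme2b makes the value uncertain. Psme3 had 55.8 and 59.8 CPM at 200 nM, against 52.8 and 52.8 CPM at 0 nM. Psme3, a nuclear activator, did not overlap but was not called (0.13 ± 0.07, edgeR adjusted p = 0.081), and turned to -0.25, a call, under library size alone.

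Psmf1, which binds the core and inhibits it in purified systems, was called higher at every dose from 50 nM with TMM scaling and from 75 nM under library size alone. Psmf1 had 217 and 219 CPM at 200 nM, against 117 and 120.4 CPM at 0 nM. There was no overlap, and the log2 fold change of Psmf1 (chr2:151715812-151744186, minus strand) was 0.88 ± 0.05 (edgeR, adjusted p = 6.58e-23). Its means over the doses from 0 to 200 nM were 118, 118, 119, 130.1, 143, 159.9, 184 and 218 CPM.

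**Figure D4:**
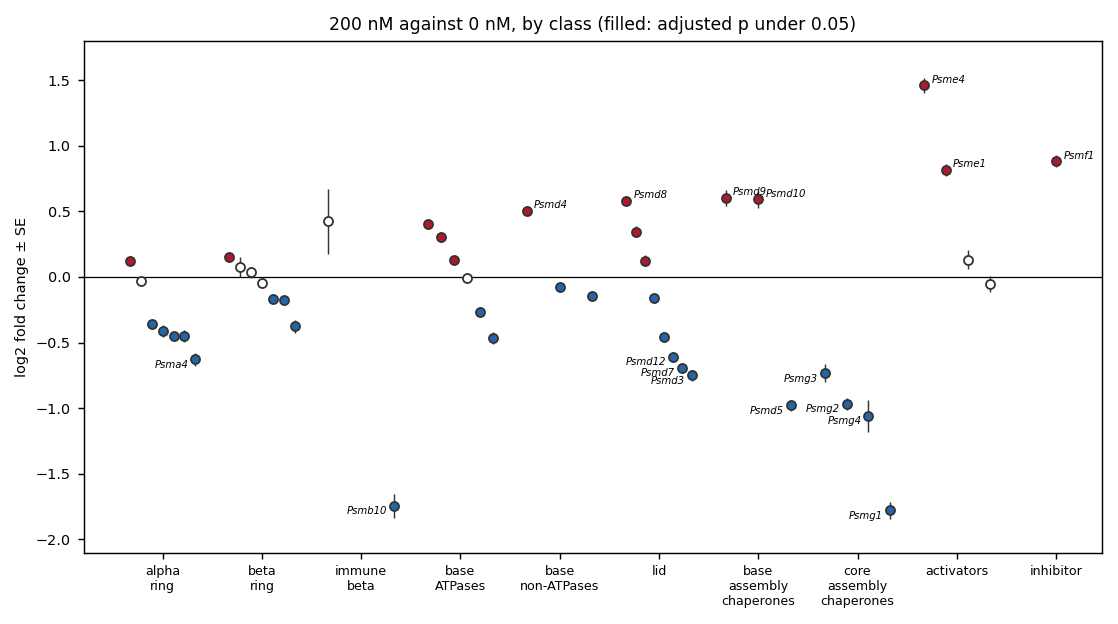
Log2 fold change ± SE at 200 nM against 0 nM (vertical axis, TMM scaling) of the 45 tested genes by role (horizontal axis), filled red or blue where called higher or lower and open where not called. The core assembly chaperones all lie below 0, with Psmg1 at -1.78, and Psme4 stands highest at 1.46, while small positive values such as that of Psmb1 (0.15) turn negative under library size alone.

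Along the dose series calls were mostly higher up to 75 nM and mostly lower at 200 nM with TMM scaling, whereas under library size alone the lower calls led from 50 nM on. At 12.5 nM against 0 nM 0 were called by edgeR and by DESeq2 (of all genes edgeR called 0.506%, 0.278% higher and 0.228% lower). At an unadjusted p under 0.05, 7 were higher and 1 lower. The share of all genes at that looser threshold was not counted, so these numbers have no background beside them. At 25 nM 2 were called higher, Psmd4 and Psmd3 (of all genes 4.02% were called, 3.0% higher and 1.02% lower), but 0 were left without 0 nM replicate 2 and 1 without any other of these libraries. At 50 nM 15 were higher and 0 lower, against 18.8% and 14.7% of all genes and 33.5% in either direction. That count fell to 8 without 0 nM replicate 1, to 9 without 50 nM replicate 1 and to 9 with DESeq2, and was 3 higher and 6 lower under library size alone (13.3% and 23.1% of all genes). At 75 nM 18 were higher and 7 lower (29.0% and 26.9% of all genes, 56.0% in either direction), with 16 called without 75 nM replicate 1 and 4 higher and 19 lower under library size alone (21.3% and 37.8% of all genes). At 100 nM 18 were higher and 14 lower (34.1% and 32.5% of all genes, 66.6% in either direction), and 9 and 27 under library size alone (24.3% and 45.8%). At 150 nM 17 were higher and 19 lower (37.7% and 36.6% of all genes, 74.3% in either direction), and 6 and 32 under library size alone (27.4% and 50.4%). These comparisons share their 0 nM libraries. The F test over all doses called 41 of 45, near the 86.3% of all genes.

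In tests between neighbouring doses, most lower calls came in the steps to 150 and to 200 nM. These steps span a wider range of dose than the earlier ones, so counts per step cannot be compared directly. At 25 nM against 12.5 nM 0 genes were called by edgeR or DESeq2 (of all genes edgeR called 1.09%, 0.893% higher and 0.198% lower). An unadjusted p under 0.05 was reached by 1 gene, and the share of all genes at that threshold was not counted. At 50 nM against 25 nM 7 were higher and 3 lower (of all genes 14.1% higher and 12.1% lower, 26.2% in all), with 5 called without 25 nM replicate 2 or 50 nM replicate 1, 6 without 25 nM replicate 1 and 4 with DESeq2. At 75 nM against 50 nM 4 were higher and 9 lower (16.6% and 15.8% of all genes, 32.3% in all), with 8 called without 50 nM replicate 1 or 75 nM replicate 1, and 2 higher and 19 lower under library size alone (13.1% and 21.5% of all genes). At 100 nM against 75 nM 8 were higher and 6 lower (14.7% and 12.8% of all genes, 27.5% in all), with 9 called without 75 nM replicate 2 or 100 nM replicate 1, and 1 higher and 16 lower under library size alone (9.71% and 21% of all genes). At 150 nM against 100 nM 5 were higher and 25 lower, so that 66.7% of the 45 were called, against 40.9% of all genes, 20.6% higher and 20.2% lower. At 200 nM against 150 nM 7 were higher and 23 lower, again 66.7%, against 39.3% of all genes, 19.4% higher and 19.9% lower. Most of these changes were small: in each of both steps 1 gene (2.22%) was called and changed at least 1.5-fold. Of all genes, 8.59% did in the step to 150 nM and 7.23% in the step to 200 nM. Proteasome genes had a higher median level (263 CPM, against 32.5 CPM), and its part in the shares called was not tested. Scaled by library size alone, 3 were higher and 27 lower in the step to 150 nM (14.9% and 27.6% of all genes), and 3 and 32 in the step to 200 nM (11.6% and 30.6%).

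Counting calls in the same direction as at 200 nM, with TMM scaling, most genes called higher at 200 nM were first called by 50 nM, and none of those called lower. Of 14 higher genes, 1 was first called higher at 25 nM (Psmd4), 8 at 50 nM, 3 at 75 nM, 1 at 100 nM and 1 at 200 nM. Of 23 lower genes, 7 were first called lower at 75 nM, 7 at 100 nM, 5 at 150 nM and 4 at 200 nM. Of the same 23, 5 had been called slightly higher at a smaller dose: Psmd3 at 25 nM, Psma6, Psmb4 and Psmd2 at 50 nM and Psmd1 at 75 nM, with log2 fold changes of 0.14, 0.11, 0.11, 0.09 and 0.07. No proteasome gene was called at 25 nM under library size alone or upper quartile scaling. With TMM scaling, none of the 14 higher genes had been called lower. This order was not tested, first calls were not counted over all genes, and the doses share their controls. The calls at 50 nM that it rests on depended on the scaling. They were 3 higher and 6 lower under library size alone (13.3% and 23.1% of all genes). With upper quartile scaling they were 7 and 2 (16% and 18.2% of all genes). For the 15 genes changed at least 1.5-fold, the dose at which the mean log2 level was midway between 0 and 200 nM had a median of 121 nM. It ran from 90.4 nM (Psmd10) to 162 nM (Psmg4), where the range over all choices of 1 library per dose was 99.7 to 169.7 nM. Psme1 was midway at 96.0 nM (range 92.9 to 98.5), Psmf1 at 102 nM (range 94.0 to 112), Psmb10 at 102 nM (range 95.2 to 108), Psmg1 at 121 nM (range 115 to 128) and Psme4 at 122 nM (range 115 to 127). The ranges of Psme1 and Psme4 do not overlap, whereas those of Psmg1 and Psme4 do.

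Levels were set side by side per kilobase of exon, with the exons of all annotated isoforms joined. This length depends on the annotation, so the order is not one of transcript numbers. By this measure the core subunits Psmb2 (1204 bases) and Psma6 (1234 bases) were highest at both doses. Without division by length, Psma7 (3071 bases) stood above both at 0 nM. It had 629 CPM there, against 353 CPM for Psmb2 and 401 CPM for Psma6. Psmb2 had 284 ± 4.14 CPM per kb at 200 nM and 294 ± 1.64 at 0 nM, and Psma6 253 ± 5.85 at 200 nM and 325 ± 0.172 at 0 nM, so their order turned round. Psmd4 was 4th of the 48 at 200 nM and 14th at 0 nM. Psmd7 was 14th at 200 nM and 4th at 0 nM. Psme4 had 17.9 ± 0.50 CPM per kb at 200 nM and 6.5 ± 0.0752 at 0 nM, and so remained among the lowest in spite of its rise. Psmb10 had 8.81 ± 0.375 CPM per kb at 200 nM and 29.5 ± 0.0115 at 0 nM, and Psmb9 1.04 ± 0.164 at 200 nM and 0.772 ± 0.0929 at 0 nM. Their constitutive counterparts stood higher: Psmb7 had 56.5 ± 0.993 at 200 nM and Psmb6 144 ± 2.06.

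Genes that feed or regulate the proteasome were read from a separate list of 31 entries, of which 30 were tested. At 200 nM 16 were higher and 7 lower with TMM scaling, where 40.5% and 39.5% of all tested genes were. Their median log2 fold change was 0.26, against 0.02 for all genes. Under library size alone 13 were higher and 14 lower, where 28.0% and 53.5% of all genes were. With TMM scaling, 4 of 6 genes of ubiquitin supply were higher and 1 lower. Among 11 shuttles and unfoldase genes 7 were higher and 3 lower. Zfand5 had 60.9 and 112 CPM at 200 nM, against 13.4 and 9.65 CPM at 0 nM. Zfand5, a proteasome activator, thus did not overlap, but its 200 nM replicates were far apart (2.90 ± 0.36, edgeR adjusted p = 5.82e-05). Akirin2 had 10.8 and 13.4 CPM at 200 nM, against 2.88 and 2.77 CPM at 0 nM. Akirin2, which carries proteasomes into the nucleus, did not overlap (2.10 ± 0.20, adjusted p = 1.62e-13). Ubqln2 had 10.4 and 11.5 CPM at 200 nM, against 4.42 and 2.77 CPM at 0 nM. The shuttle Ubqln2 was likewise apart (1.61 ± 0.20, adjusted p = 5.2e-10).

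The 3 largest falls in that list were of Ubqln4, Uchl5 and Uba6. Ubqln4 had 36.5 and 38.4 CPM at 200 nM, against 90.9 and 88.8 CPM at 0 nM. This shuttle did not overlap between doses (-1.26 ± 0.07, edgeR adjusted p = 1.52e-19). Uchl5 had 202 and 220.1 CPM at 200 nM, against 451 and 447 CPM at 0 nM. Uchl5, a deubiquitinase on the base, was also apart (-1.09 ± 0.04, adjusted p = 1.06e-29). Uba6 had 6.91 and 5.25 CPM at 200 nM, against 13.1 and 12.1 CPM at 0 nM. Uba6, an activating enzyme for ubiquitin, did not overlap either (-1.06 ± 0.16, adjusted p = 1.24e-07). Nfe2l1, the transcription factor known to drive proteasome genes when the proteasome is short, was not called (-0.14 ± 0.08, adjusted p = 0.115), and its relative Nfe2l2 rose by 0.80 ± 0.04. Pomp, which matures the core, was not called, with 226 CPM at 200 nM and 228 CPM at 0 nM.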

How the data were processed

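The authors deposited a table of raw counts by gene symbol for 16 Smart-seq2 libraries, per the labels' protocols. The submitters' processing notes name bcl2fastq, STAR and mm10. The sources used here give no versions, counter, annotation or rule for multiply mapped reads. Counts were tested as deposited with edgeR 4.0.16 in R 4.3.3 (filterByExpr, TMM, robust quasi-likelihood fit on all 16 libraries with dose as a factor), and p-values were adjusted over the 10080 genes tested within each comparison. Called means an adjusted p under 0.05. CPM are TMM-scaled, and depth limits precision for the genes with few counts. The procedure was tested on simulated data. Alternatives were DESeq2 1.42.0, other scalings, no filter, a replicate block and each library left out. Scaling by library size with Rn45s and globins left out was added after seeing the data. Members and lists were chosen with earlier results of these data known. Given with both replicates at 200 and 0 nM are, per role, the genes with the highest and lowest change at 200 nM. So are the catalytic and tested immune beta subunits, activators, inhibitor and genes above both ends, and the 3 highest and lowest related genes. Midpoint doses used log2 CPM with a prior count of 2. Exon lengths, overlaps and near-identical transcripts (at least 95% identity over 50% of length, 8 of 48 genes) came from GENCODE M21, promoters from RefSeq. Protein sequences were not used here.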

Additional observations from a re-analysis of the deposited data

How the results depend on the processing

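Of 297 values of named genes at 200 nM against 0 nM under alternatives, 269 kept their direction and side of the threshold, 9 passed it anew, 4 no longer did and 15 turned round. Of the 297, 108 came from leaving 1 library out, and 107 held. The exception was Psma1, which was not called in any of these and ran from -0.0801 to 0.0024, above 0 without 200 nM replicate 2. Those that turned round under library size alone were Psme3 (-0.25), Psma2 (-0.26), Psmc6 (-0.25), Psmb1 (-0.23), Psmb5 (-0.31) and Psmb7 (-0.35), with upper quartile scaling Psmb5 (-0.0023) and Psmb7 (-0.0418), neither called, and with library size after Rn45s and globins were left out Psme3 (-0.14, not called), Psma2 (-0.15), Psmc6 (-0.14), Psmb1 (-0.12), Psmb5 (-0.20) and Psmb7 (-0.24). These settings shift all genes by construction. Counts that moved by over 1.5 times were those at 25 nM against 0 nM (0 under library size alone, upper quartile scaling and library size with Rn45s and globins left out, 1 with DESeq2), at 50 nM against 0 nM (9 under library size alone, upper quartile scaling and DESeq2), at 75 nM against 0 nM (16 with DESeq2), at 50 nM against 25 nM (4 with DESeq2) and at 75 nM against 50 nM (21 under library size alone). The cause was not tested.

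With each library left out, in which case the lone replicate of a dose is assumed to vary like the other doses, counts called against 0 nM were 0 to 1 at 25 nM, 8 to 20 at 50 nM, 16 to 22 at 75 nM, 29 to 31 at 100 nM, 31 to 34 at 150 nM and 35 to 36 at 200 nM. Between neighbours they were 5 to 9 (50 against 25 nM), 8 to 13 (75 against 50 nM), 9 to 10 (100 against 75 nM), 22 to 24 (150 against 100 nM) and 21 to 29 (200 against 150 nM). No pairing by replicate number was seen: over 28 pairs of doses the correlation of same-numbered deviations ran from -0.0583 to 0.0960, with 0 over 0.1. Counting noise in genes with few counts lowers such correlations, so they cannot show that the samples were unpaired. A replicate block gave 37 called at 200 nM, 14 higher and 23 lower, and moved none of the counts by over 1.5 times. Depth limits Psmb8, Psmb9 and Psmb11.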
